A study of Mus musculus with 15 samples.

Results

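The proteasome subunits were followed in regulatory T cells (Tregs) from mouse skin and lymph node. Members were the genes in the deposited count table whose symbol is Psm, a letter from a to e and a number. That rule found 43 of 24015 genes, and all 43 passed the filter on low counts, 1 of them, Psma8, on a few counts only. The set comprises 5 inducible genes (Psmb8, Psmb9, Psmb10, Psme1 and Psme2) and 38 others.

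The 26S proteasome degrades ubiquitin-tagged proteins. Its 20S core is a barrel of alpha rings (Psma genes) around beta rings (Psmb genes) that carry the catalytic sites, and its 19S cap of ATPases (Psmc genes) and non-ATPase subunits (Psmd genes) recognises, unfolds and feeds in substrates. In lymphoid cells, and in other cells under interferon-gamma, the catalytic subunits encoded by Psmb5, Psmb6 and Psmb7 are replaced in newly built cores by those of Psmb8, Psmb9 and Psmb10. Such immunoproteasomes are known for making peptides for MHC class I, often with the 11S activator (PA28) of Psme1 and Psme2 on the barrel end.

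RNA was sequenced from Tregs of adult C57BL/6 mice, sorted as CD45+ CD3+ CD4+ YFP+ cells, in 5 groups of 3 biological replicates. All groups carried Foxp3 cre-eyfp, which marks Tregs with YFP and drives Cre in them, and which alone is called WT here. Mice that also carried Rora fl/fl are called cKO: the Treg-directed deletion of Rora, a nuclear receptor gene. WT and cKO Tregs were taken from untreated skin and from skin treated topically with MC903, a vitamin D analogue that causes an atopic dermatitis-like inflammation, 4 times on every other day. WT Tregs were also taken from axillary lymph nodes (LN) of untreated mice. Untreated skin was dorsal skin and ears together, whereas MC903 skin was ears alone, and MC903 was given in ethanol while controls were left untreated, so body site, vehicle and treatment cannot be told apart. Skin was digested with Liberase TL and lymph nodes were homogenised, so tissue and cell isolation cannot be told apart either.

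The libraries held 19.8 to 27.7 M counts each. Treg and T cell markers summed to 6046 to 7958 CPM (counts per M of the scaled library) in skin and 3855 to 4589 in LN, and all 7 were detected in every group. The 7 did not move together: 4 were called higher and 3 lower in untreated WT skin than in LN (edgeR, adjusted p under 0.05). Of all genes tested, 28.8% were called higher there, and 28.8% lower. Rora lay at 1327 to 1510 CPM in WT and 822 to 1199 CPM in cKO untreated skin, at 739 to 813 and 473 to 633 CPM in MC903 skin, and at 52.8 to 66.6 CPM in LN. The counts cover the whole gene, so a deletion of some exons need not remove them. B cell markers summed to 8.19 to 25.2 CPM in skin and 193 to 699.5 in LN, and keratinocyte markers to 47.9 to 643 in skin and 15.1 to 17.3 in LN. The 17 immediate early and heat shock genes summed to 18270 to 25640 CPM in untreated skin, 11500 to 12750 in MC903 skin and 3676 to 3814 in LN. In such bulk samples fewer cells of a type and less RNA per cell cannot be told apart.

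Promoters of the 5 inducible genes and of the constitutive Psmb5 and Psmb6, 1 window per gene, are shown, since the RNA of these genes is compared below. Each window, from RefSeq on GRCm38.p6, runs from 250 bases before to 50 after the gene's start. Sequences are printed 5′ to 3′ along the gene. Capitals mark matches, on either strand, to the interferon-stimulated response element core GAAANNGAA, to the gamma-activated sequence TTCNNNGAA or to the antioxidant response element core TGACNNNGC, and motifs that share bases were each counted. Psmb7 has no window in the table used.
Psmb8 (chr17:34197945-34198244, plus strand): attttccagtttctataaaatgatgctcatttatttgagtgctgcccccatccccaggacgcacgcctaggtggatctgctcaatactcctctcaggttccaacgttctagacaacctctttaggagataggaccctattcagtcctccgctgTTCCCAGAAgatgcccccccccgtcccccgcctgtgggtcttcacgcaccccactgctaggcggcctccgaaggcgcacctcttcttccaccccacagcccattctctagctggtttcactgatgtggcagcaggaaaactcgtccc
Psmb9 (chr17:34187281-34187580, minus strand): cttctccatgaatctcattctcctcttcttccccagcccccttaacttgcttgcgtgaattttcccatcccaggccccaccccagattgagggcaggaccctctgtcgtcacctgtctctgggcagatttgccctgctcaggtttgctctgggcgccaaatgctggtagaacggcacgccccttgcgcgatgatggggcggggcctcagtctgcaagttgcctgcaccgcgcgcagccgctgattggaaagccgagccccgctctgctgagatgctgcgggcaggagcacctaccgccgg
Psmb10 (chr8:105938343-105938642, minus strand): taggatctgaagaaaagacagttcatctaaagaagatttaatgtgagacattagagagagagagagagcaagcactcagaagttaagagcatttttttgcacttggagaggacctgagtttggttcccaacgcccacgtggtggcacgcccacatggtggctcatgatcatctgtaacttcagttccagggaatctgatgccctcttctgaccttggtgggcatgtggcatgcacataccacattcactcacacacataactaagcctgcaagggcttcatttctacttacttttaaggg
Psme1 (chr14:55578244-55578543, plus strand): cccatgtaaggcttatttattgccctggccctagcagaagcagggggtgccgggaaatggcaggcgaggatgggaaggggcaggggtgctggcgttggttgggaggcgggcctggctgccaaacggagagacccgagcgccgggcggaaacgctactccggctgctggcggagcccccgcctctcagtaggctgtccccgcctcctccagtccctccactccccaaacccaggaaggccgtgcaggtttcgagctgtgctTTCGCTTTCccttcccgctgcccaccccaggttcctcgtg
Psme2 (chr14:55591052-55591351, minus strand): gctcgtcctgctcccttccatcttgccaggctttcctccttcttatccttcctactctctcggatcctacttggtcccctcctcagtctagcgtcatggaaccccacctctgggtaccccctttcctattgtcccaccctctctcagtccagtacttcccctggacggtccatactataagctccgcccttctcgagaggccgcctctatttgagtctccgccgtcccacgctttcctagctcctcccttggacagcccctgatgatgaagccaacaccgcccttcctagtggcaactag
Psmb5 (chr14:54617946-54618245, minus strand): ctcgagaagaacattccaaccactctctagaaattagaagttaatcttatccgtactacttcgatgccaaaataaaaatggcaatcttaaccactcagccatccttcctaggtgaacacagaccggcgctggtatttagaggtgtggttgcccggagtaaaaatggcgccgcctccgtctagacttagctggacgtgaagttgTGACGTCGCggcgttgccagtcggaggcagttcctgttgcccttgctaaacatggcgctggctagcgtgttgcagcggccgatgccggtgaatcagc
Psmb6 (chr11:70525107-70525406, plus strand): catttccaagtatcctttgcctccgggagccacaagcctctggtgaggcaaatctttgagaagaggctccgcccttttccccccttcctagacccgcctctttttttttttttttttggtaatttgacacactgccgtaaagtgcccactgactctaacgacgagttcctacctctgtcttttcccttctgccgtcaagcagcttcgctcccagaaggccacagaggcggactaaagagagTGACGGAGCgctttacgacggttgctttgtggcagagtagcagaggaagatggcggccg
The interferon-stimulated core was found in 8.56% of all 32851 windows, the gamma-activated sequence in 8.3% and the antioxidant core in 12.4%. Among the 39 windows of the 36 members that have any, these motifs occurred in 6, 2 and 6. Psme2 has a further window (chr14:55590972-55591271), which is counted but not printed. The 6 windows of the inducible genes held 1 interferon-stimulated core, in Psme1 10 bases after the start, 1 gamma-activated sequence, in Psmb8 97 bases before it, and 0 antioxidant cores. The antioxidant core lay 47 bases before the start of Psmb5 and 9 bases before that of Psmb6. These are matches of letters and not shown to be sites.

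Skin Tregs carried less RNA of all 5 inducible members than LN Tregs, in untreated and in MC903-treated skin alike. In untreated WT skin the fall was 4.79-fold for Psmb9, 2.93-fold for Psmb10 and 2.54-fold for Psmb8, and it was smaller for the activator genes Psme1 and Psme2. On the scaled counts the constitutive catalytic subunit Psmb5 was higher in skin by 1.38-fold. Over all members, 6 were called higher and 14 lower in untreated skin at an adjusted p under 0.05 (edgeR's quasi-likelihood test, Benjamini-Hochberg over 13578 genes). Of all genes tested, 28.8% were called higher and 28.8% lower. The median change of the members was -0.07 on the log2 scale, that of all genes 0.01.

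**Figure D1:**
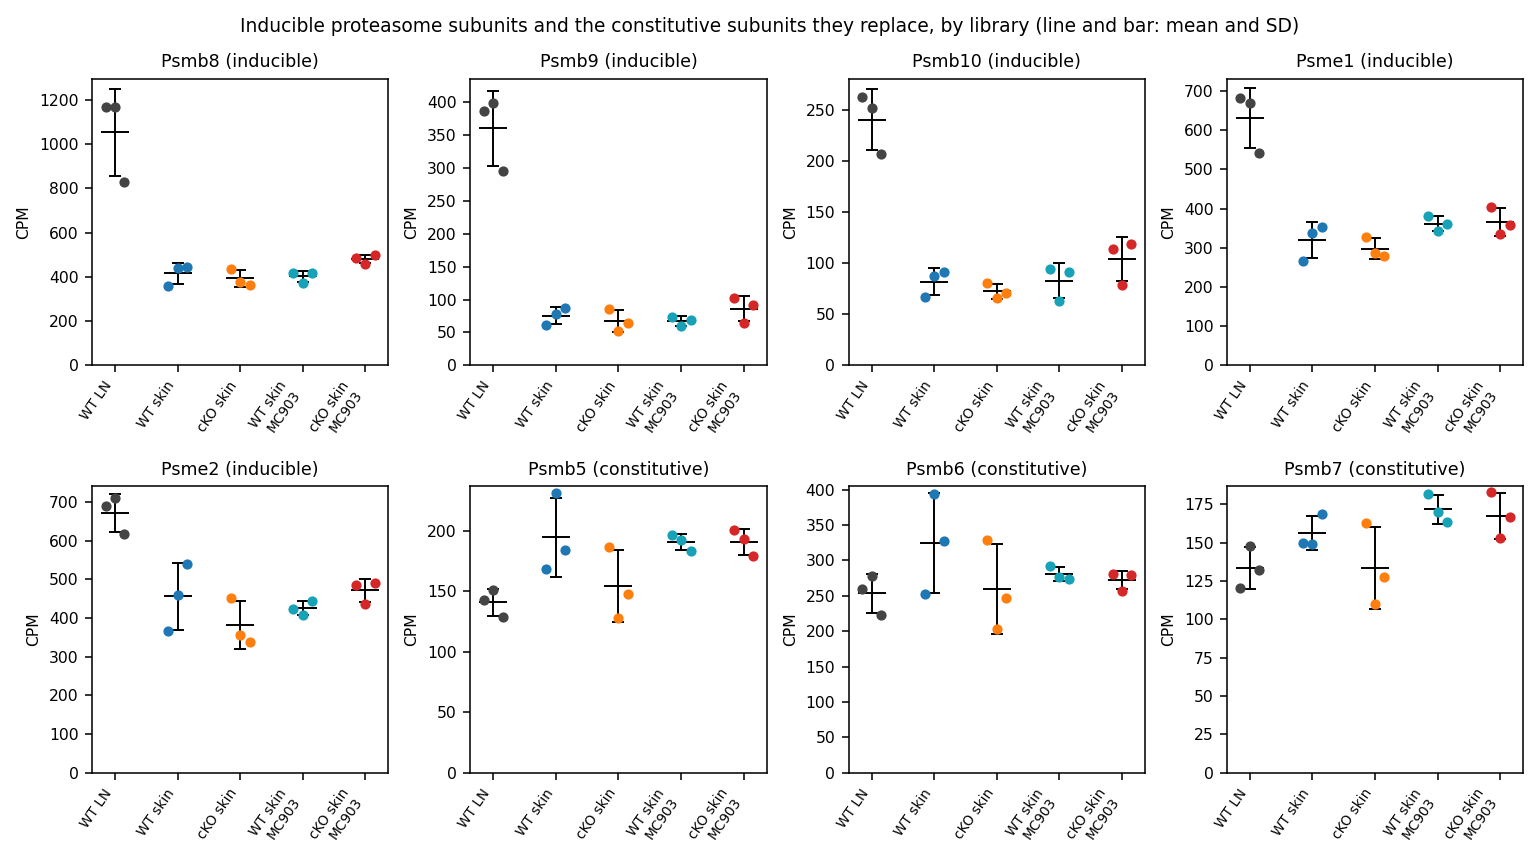
Levels in CPM of the 5 inducible members and the 3 constitutive catalytic subunits in each of 15 libraries, by group; points are libraries, the line the mean and the bar the SD over 3. All 3 LN libraries lie above all 12 skin libraries for each inducible member, and no such gap is seen for Psmb5, Psmb6 or Psmb7.

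Psmb8 encodes the inducible chymotrypsin-like subunit, which takes the place of Psmb5. Its level was 359.5, 441 and 444 CPM in the 3 untreated WT skin libraries and 1167, 1167 and 827 in LN. The groups did not overlap, and LN replicate 3 was the lowest of its group. The log2 change was -1.34 ± 0.14 (SE; adjusted p = 8.11e-07, edgeR).

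Psmb9, the inducible partner of Psmb6 and a neighbour of the peptide transporter gene Tap1, had the widest gap of the inducible members. Its transcript overlaps that of Tap1 on the other strand by 212 bases and shares 10.8% of its windows of 75 bases with it, so its count may hold reads of Tap1. It stood at 61.7, 77.2 and 86.9 CPM in untreated WT skin and at 387, 399 and 295 CPM in LN, a log2 change of -2.26 ± 0.21 (adjusted p = 2.35e-07, edgeR). The highest of the 12 skin libraries was at 103 CPM, against 295 CPM in the lowest LN library.

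Psmb10, the inducible trypsin-like subunit that takes the place of Psmb7, was at 67.0, 87.5 and 91.2 CPM in untreated WT skin and at 263, 252 and 207 CPM in LN. Here too the groups were apart, with a log2 change of -1.55 ± 0.19 (adjusted p = 4.52e-06, edgeR).

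Psme1 and Psme2 encode the alpha and beta chains of the 11S activator. Psme1 was at 267, 339 and 354 CPM in untreated WT skin and at 682, 671 and 543 CPM in LN, a log2 change of -0.98 ± 0.13 (adjusted p = 1.24e-05, edgeR). Psme2 was at 368, 460.0 and 539.6 CPM against 689, 709.6 and 616 CPM, a log2 change of -0.56 ± 0.14 (adjusted p = 0.00321, edgeR). Neither gene's groups overlapped. Of the windows of 75 bases in the Psme2 transcript 51.7% also occur in the near-identical Psme2b, so its count is uncertain. Psme2b itself was counted at 51 to 101 reads per skin library and at 425 to 479 per LN library.

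In all 5 inducible genes LN replicate 3 was the lowest of the LN libraries. That library also had the highest sum of B cell markers, 699.5 CPM against 221 and 193 in LN replicates 1 and 2. Its macrophage, dendritic and Langerhans cell marker sum was the highest of its group too, 145.5 CPM against 28.6 and 24.6. Whether RNA of B cells or of these other cells had a part in these values was not tested. Without that replicate and 3 skin libraries rich in some markers of other cells, all 5 were still called lower in both comparisons with LN. Untreated WT skin replicate 3, which was left out, had the highest macrophage, dendritic and Langerhans cell marker sum of its group. That sum was 170 CPM, against 29.1 and 36.8. Its keratinocyte marker sum, 275 CPM, was the lowest of its group, and replicate 1 with 643 CPM was kept.

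The constitutive catalytic subunits showed no such drop. Psmb5, the chymotrypsin-like subunit, lay at 168, 232 and 184 CPM in untreated WT skin and at 143, 151 and 129 CPM in LN, a log2 change of 0.47 ± 0.14 (adjusted p = 0.0117, edgeR). All 3 skin libraries were above the LN libraries in CPM, and this order rests on the scaling. The scaling factors were 0.903 to 0.940 in untreated WT skin and 1.14 to 1.26 in LN. Of the unscaled counts, all members together took 0.720% to 0.861% in untreated WT skin and 1.20% to 1.27% in LN. The Psmb5 call was lost without untreated WT skin replicate 2 (0.32, adjusted p = 0.0683, edgeR). It was also lost without the 4 libraries rich in other cells (0.44, adjusted p = 0.076, edgeR). Of the windows of 75 bases in the Psmb5 transcript, 40% are shared with another gene or with a microRNA gene inside it. Psmb6 was at 253, 393 and 328 CPM against 259.9, 278 and 223 CPM, and these groups overlapped (log2 change 0.36 ± 0.17, adjusted p = 0.0842, edgeR). It was called without untreated WT skin replicate 1 (0.50, adjusted p = 0.0214, edgeR) and by DESeq2 on all libraries (0.40, adjusted p = 0.0423). Psmb7 was at 150.1, 149 and 169 CPM against 121, 148 and 132 CPM, with a log2 change of 0.23 ± 0.14 (adjusted p = 0.172, edgeR).

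The balance between each inducible subunit and its constitutive counterpart can be read within a library, free of scaling. The count ratio of Psmb8 to Psmb5 was 2.15 ± 0.25 (SD, n = 3) in untreated WT skin and 7.44 ± 0.90 in LN. The ratio of Psmb9 to Psmb6 was 0.235 ± 0.035 against 1.42 ± 0.084, and that of Psmb10 to Psmb7 was 0.524 ± 0.071 against 1.81 ± 0.32. In each pair the lowest LN library exceeded the highest of the 12 skin libraries. These ratios are of counts, so transcript lengths enter each of them equally in every library.

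**Figure D2:**
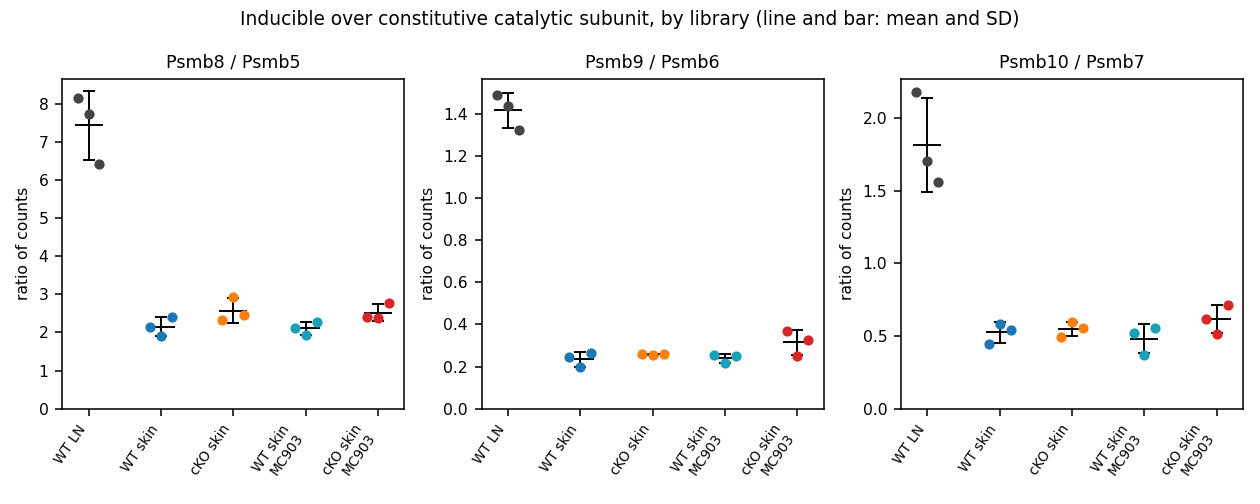
Ratio of the counts of each inducible catalytic subunit to those of the constitutive subunit it replaces, in each library; the line is the mean and the bar the SD over 3. The ratio of Psmb9 to Psmb6 lies above 1 in LN (1.33 to 1.49) and between 0.196 and 0.367 in skin.

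Per length of the principal transcript, in CPM per kb, Psmb8 had the highest level of the 6 catalytic subunits in LN (647 ± 121, SD), followed by Psmb6 (318 ± 35.0), Psmb9 (267 ± 42.0), Psmb10 (183 ± 22.6), Psmb5 (157 ± 12.6) and Psmb7 (115 ± 11.7). The spreads of Psmb6 and Psmb9 touch, as do those of Psmb10 and Psmb5. In untreated WT skin the order was Psmb6 (407 ± 88.2), Psmb8 (255 ± 29.5), Psmb5 (217 ± 36.7), Psmb7 (135 ± 9.51), Psmb10 (62.5 ± 9.94) and Psmb9 (55.7 ± 9.41). There Psmb8 and Psmb5, and Psmb10 and Psmb9, do not differ beyond their spread. The 5 inducible genes together took 28.1% ± 1.79 of the members' counts in LN and 15.3% ± 1.09 in untreated WT skin.

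Among the activators outside the inducible pair, the genes parted. Psme4, which encodes the activator PA200, was at 23.7, 39.3 and 26.0 CPM in untreated WT skin and at 10.2, 6.44 and 13.1 CPM in LN. The groups did not overlap, and the log2 change of 1.58 ± 0.26 was the largest rise among the members (adjusted p = 0.000102, edgeR). Psme3, the nuclear activator PA28-gamma, was at 209, 137 and 195 CPM against 221, 233 and 282 CPM, a log2 change of -0.44 ± 0.14 (adjusted p = 0.0133, edgeR).

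Beyond the inducible genes, the deepest called falls were in Psmd5 and Psmd10, both known as chaperones of 19S base assembly. Psmd5 lay at 47.8, 33.8 and 41.1 CPM in untreated WT skin and at 129, 144 and 114 CPM in LN, a log2 change of -1.66 ± 0.15 (adjusted p = 2.4e-07, edgeR). Psmd10 lay at 27.7, 33.4 and 38.1 CPM against 73.2, 78.0 and 57.9 CPM, a log2 change of -1.08 ± 0.15 (adjusted p = 2.16e-05, edgeR). In both genes the groups were apart. Psmd9, the remaining base chaperone of the set, was not called (log2 change 0.21 ± 0.16, adjusted p = 0.295, edgeR).

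Of the 14 non-ATPase members, 2 rose and 5 fell in untreated skin, where 28.8% of all genes were called in each direction. Counts by subunit class, here and below, were not tested against that share. Psmd7 and Psmd8 of the 19S lid rose by 0.47 and 0.44 on the log2 scale. Like that of Psmb5, all rises against LN were read on scaled counts, with the factors given above. They were not tested on unscaled counts. The falls outside the chaperones were in the deubiquitinase gene Psmd14 (-0.54), the base scaffold gene Psmd2 (-0.52) and the lid gene Psmd3 (-0.37). Of the 6 ATPases only Psmc6 was called, at 0.42 ± 0.10 (adjusted p = 0.00229, edgeR).

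Of the 16 core genes outside the inducible set, 2 rose (Psmb5 and Psma3, the latter by 0.36) and 3 fell, all of them alpha ring genes: Psma4 (-0.69), Psma6 (-0.42) and Psma1 (-0.40). Psma4 was at 138, 151 and 172 CPM in untreated WT skin and at 249, 258 and 239.7 CPM in LN, with no overlap. The Psma3 call was lost without untreated WT skin replicate 2 (0.27, adjusted p = 0.0884, edgeR). Of the 75-base windows in the transcript, 16.7% for Psma4 and 21.3% for Psma3 also occur in other genes.

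A pair of members was barely detected. Psmb11, the thymic cortical epithelial subunit, had 16 to 45 counts in every library. Psma8, the testis alpha subunit, had 11, 18 and 5 counts in LN, 0, 15 and 2 in WT MC903 skin and 0 in the other 9 libraries, so its fold changes are not given.

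**Figure D3:**
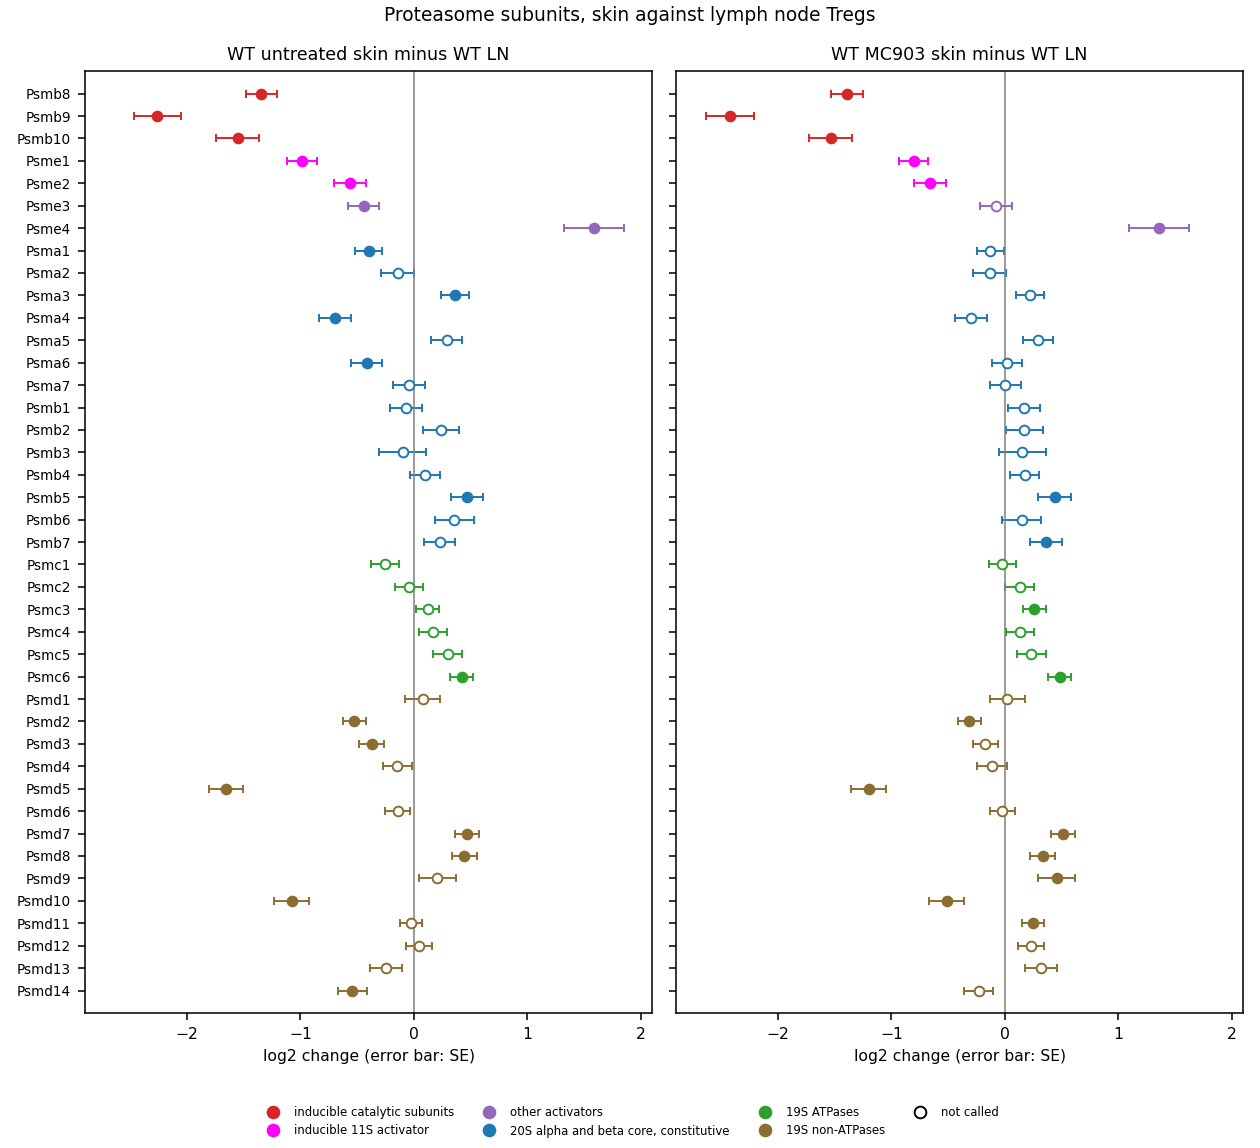
Log2 change of 41 members (Psma8 and Psmb11 left out for their low counts) from WT LN to untreated (left) and MC903-treated (right) WT skin; the bar is the SE, colours are classes and filled points are called at an adjusted p under 0.05. The 5 inducible members lie to the left in both panels, Psmb9 farthest at -2.26 and -2.42, while most other subunits lie near 0.

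Set against the same 3 LN libraries, WT MC903 skin gave 9 members higher and 8 lower, with 26.5% of all genes called higher and 24.5% lower. Both comparisons share the LN libraries, so their values are given side by side only. Psmb9 was at 73.9, 59.4 and 68.3 CPM in WT MC903 skin and changed by -2.42 ± 0.21 from LN. The changes were -1.39 ± 0.14 for Psmb8, -1.54 ± 0.19 for Psmb10, -0.81 ± 0.13 for Psme1 and -0.66 ± 0.14 for Psme2. Their adjusted p ran from 1.6e-07 to 0.00115 (edgeR).

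Psmd5 (-1.20), Psmd10 (-0.51) and Psmd2 (-0.31) made up the rest of the lower calls in MC903 skin. Rises here were also read on scaled counts, with factors of 0.992 to 1.04 in WT MC903 skin. The higher calls were Psme4 (1.36), Psmd7 (0.51), Psmc6 (0.48), Psmd9 (0.46), Psmb5 (0.44), Psmb7 (0.36), Psmd8 (0.33), Psmc3 (0.26) and Psmd11 (0.25), all as log2 changes. Psmc3 and Psmb7 lost the call in 9 and 6 of 14 alternative settings, and Psmd11 was not among the members recomputed under them. Psmd8 lost it without LN replicate 1 or WT MC903 replicate 3, and Psmd9 without LN replicate 1 or 3 or WT MC903 replicate 1 or 2. Psmb7 and Psmd9 overlap genes on the other strand, Nek6 and Gm26745, from which their reads may not be told apart. Psmd10 and Psmd2 lost their lower call without LN replicate 2 (adjusted p = 0.0541 and 0.0656, edgeR), and Psmd2 also without WT MC903 replicate 1 or 2. Leaving out LN replicate 1 cut the count of higher calls to 4, and leaving out any of the WT MC903 replicates cut it to 5. It was 3 without replicate 3 of 4 groups, the libraries rich in some markers of other cells. Over all genes 3602 were higher on all libraries, 2948 without LN replicate 1 and 3162 to 3267 without a WT MC903 replicate. Without those 4 libraries 2991 were higher.

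Between MC903-treated ears and untreated skin few members were called. In WT skin Psmd10 and Psmd13 rose and 0 fell, beside 5.03% of all genes called higher and 5.44% lower. In cKO skin Psmd10, Psmb1, Psma4, Psma6 and Psmb4 rose and 0 fell, beside 5.96% and 5.3%. None of the 5 inducible genes was called in either genotype by edgeR on all libraries. The median member changed by 0.12 in WT and by 0.29 in cKO on the log2 scale, against 0.01 and -0.01 for all genes, and 9 and 23 members had an unadjusted p under 0.05, as had 25.5% and 27.1% of all genes.

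Psmd10 was at 27.7, 33.4 and 38.1 CPM in untreated and at 49.2, 47.1 and 50.2 CPM in MC903 WT skin. In cKO skin it was at 35.8, 28.8 and 30.6 CPM against 52.6, 47.8 and 50.8 CPM. Untreated and treated libraries were apart in both genotypes, with log2 changes of 0.56 ± 0.15 (adjusted p = 0.0279, edgeR) and 0.67 ± 0.15 (adjusted p = 0.0116, edgeR). Psmd13, a lid subunit whose transcript overlaps Sirt3 on the other strand, went from 118, 108 and 141 CPM to 187, 178 and 176 CPM in WT skin (log2 change 0.56 ± 0.14, adjusted p = 0.0195, edgeR).

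In cKO skin Psmb1, a constitutive core subunit, was at 374, 260.5 and 277 CPM untreated and at 473, 469 and 444 CPM after MC903 (log2 change 0.61 ± 0.14, adjusted p = 0.0129, edgeR). Psmb4, another core subunit, was at 184, 139.5 and 153 CPM against 212, 230.3 and 223 CPM (log2 change 0.48 ± 0.13, adjusted p = 0.0261, edgeR). For the alpha ring genes the log2 changes were 0.58 ± 0.14 in Psma4 and 0.52 ± 0.13 in Psma6. In each of these 4 genes the treated cKO libraries lay above the untreated ones, of which replicate 1 was the highest. The cKO count of members moved with single libraries: it was 15 without untreated cKO replicate 1 and 0 without replicate 2 or 3 of that group. It was 2, 2 and 3 without replicate 1, 2 and 3 of cKO MC903. Calls over all genes moved too. On all libraries 809 genes were higher, and without untreated cKO replicate 1, 2 and 3 there were 1054, 351 and 343. Without cKO MC903 replicate 1, 2 and 3 there were 502, 369 and 439. Of the 2 members called without cKO MC903 replicate 2, only 1 was among the cKO calls on all libraries. The WT count of 2 became 1 without untreated replicate 1 or 2 and 3 without replicate 3. It became 0 without MC903 replicate 1 and 1 without replicate 2 or 3. Over all genes 683 were higher in WT skin on all libraries, and 378 to 711 on leaving out a replicate. The 1 member called without untreated WT replicate 1 or 2 was neither Psmd10 nor Psmd13. In WT skin Psmd10 lost its call in 7 and Psmd13 in 4 of 14 alternative settings.

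The inducible genes changed in WT skin by -0.05 ± 0.14 (Psmb8), -0.16 ± 0.20 (Psmb9), 0.02 ± 0.19 (Psmb10), 0.18 ± 0.13 (Psme1) and -0.10 ± 0.14 (Psme2) on the log2 scale with MC903. In cKO skin the values were 0.29 ± 0.14, 0.36 ± 0.20, 0.52 ± 0.19, 0.30 ± 0.13 and 0.30 ± 0.14, with adjusted p from 0.0822 to 0.264 (edgeR). Psmb10 was called in cKO skin by limma-voom (0.53, adjusted p = 0.0483) and without cKO MC903 replicate 2 (0.69, adjusted p = 0.049, edgeR), and Psme2 by limma-voom (0.36, adjusted p = 0.0464). Psmb8 stood at 435, 377 and 365 CPM in untreated and 484, 458 and 497 CPM in MC903 cKO skin, which did not overlap. Psmb9 stood at 85.1, 52.2 and 64.2 CPM against 103, 64.8 and 90.9 CPM, which did.

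**Figure D4:**
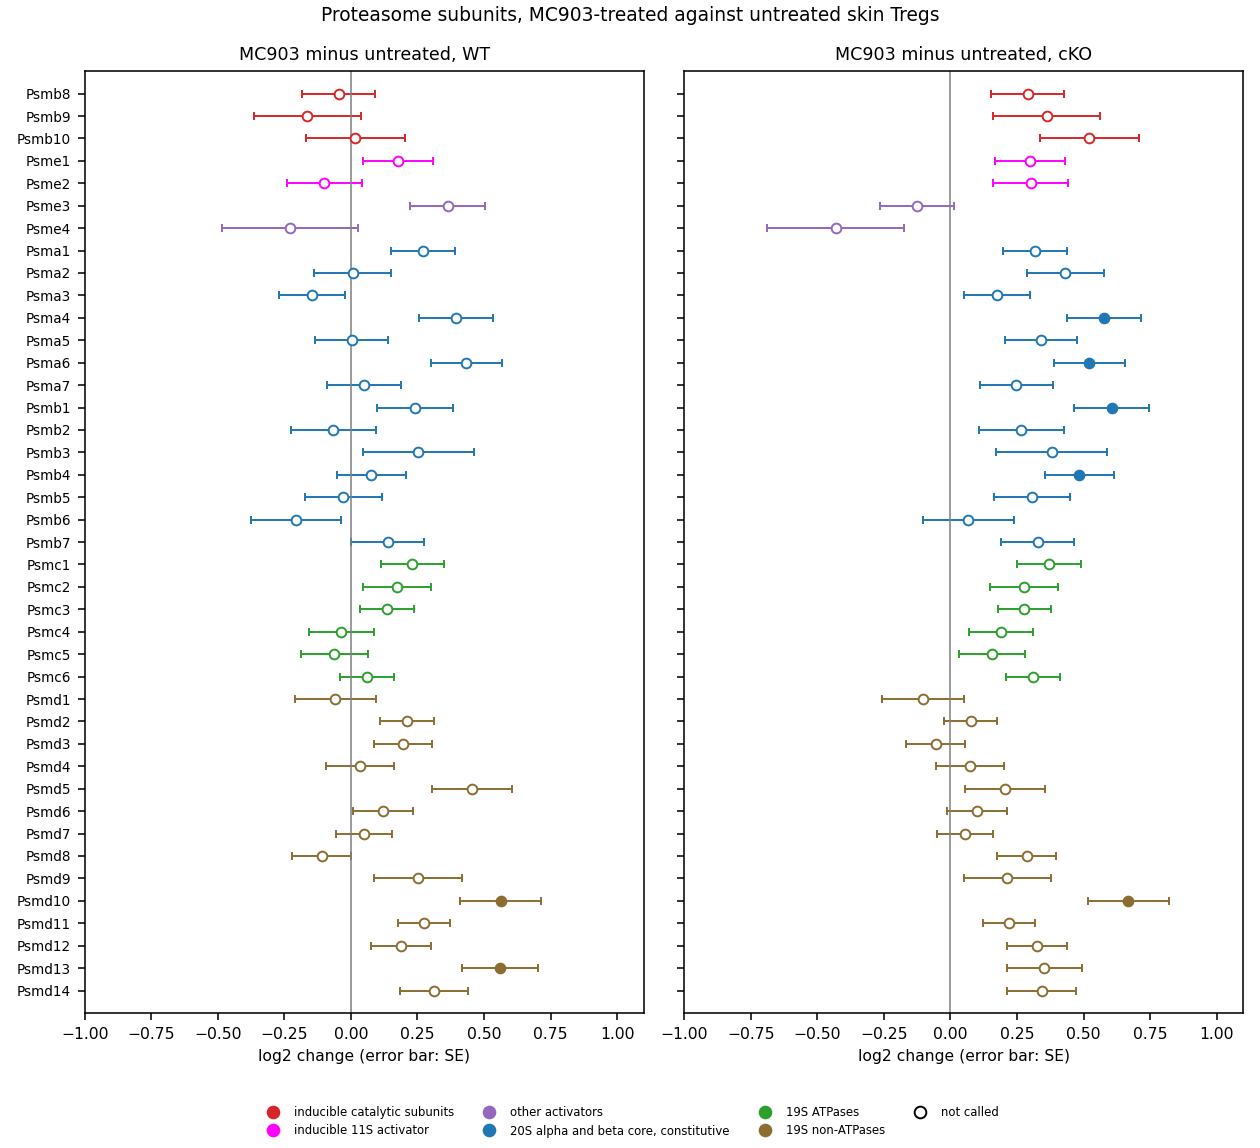
Log2 change of 41 members with MC903 in WT (left) and cKO (right) skin; the bar is the SE, colours are classes and filled points are called. Filled points are Psmd10 and Psmd13 in WT and Psmd10, Psmb1, Psma4, Psma6 and Psmb4 in cKO; the difference between the panels was tested as an interaction, with 0 members called.

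No member was called between cKO and WT. The counts were 0 in untreated skin (0.398% of all genes higher, 0.405% lower), 0 in MC903 skin (0.081% and 0.177%) and 0 for genotype averaged over treatments (0.884% and 0.862%). The genotype by MC903 interaction gave 0 members and 0% of genes in either direction. DESeq2 also called 0 members in these 4 comparisons, and 6, 2, 1 and 3 members had an unadjusted p under 0.05, as had 11.5%, 6.75%, 11.8% and 5.63% of all genes.

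For the inducible catalytic genes, approximate 95% intervals of the cKO minus WT difference were taken from the SE and a normal distribution. They are narrower than the quasi-likelihood test implies. For Psmd2 with MC903 in WT skin such an interval ran from 0.015 to 0.408, at an unadjusted p of 0.0514 (edgeR). In untreated skin the interval ran from -0.35 to 0.19 on the log2 scale for Psmb8, from -0.56 to 0.23 for Psmb9 and from -0.54 to 0.18 for Psmb10. In MC903 skin it ran from -0.01 to 0.52, from -0.03 to 0.75 and from -0.04 to 0.69. The interaction for Psmb9 was 0.52 ± 0.28 (adjusted p = 0.881, edgeR). The members with the smallest p were Psmc4 (-0.33 ± 0.12) and Psma5 (-0.33 ± 0.14) in untreated skin, Psmd3 (-0.25 ± 0.11) and Psmc6 (0.22 ± 0.10) in MC903 skin, Psmc4 (-0.21 ± 0.09) and Psmc5 (-0.17 ± 0.09) for the average, and Psmd8 (0.40 ± 0.16) and Psme3 (-0.49 ± 0.20) for the interaction. Their adjusted p lay between 0.305 and 0.866 (edgeR).

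Genes that build and feed the proteasome parted between skin and LN as well. Of 28 listed genes for assembly, regulation and ubiquitin supply, 11 were higher and 11 lower in untreated WT skin. Of all genes tested, 28.8% were higher and 28.8% lower. The counts of this and the next lists were not tested against the shares of all genes. The ubiquitin gene Ubb rose by 1.90 ± 0.19 on the log2 scale, and the proteasome-binding zinc finger gene Zfand5 by 2.02 ± 0.19. Ngly1, the glycanase known to activate the transcription factor of Nfe2l1, changed by -1.57 ± 0.16. The adjusted p of these 3 ran from 2.44e-07 to 6.95e-07 (edgeR). The immediate early and heat shock sum given above was also higher in skin, and its part in these values was not tested.

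All 4 Psmg genes, which encode core assembly chaperones and were picked out after their values were seen, were lower in untreated skin. The log2 changes were -2.28 ± 0.28 for Psmg1, -1.28 ± 0.18 for Psmg4, -1.20 ± 0.19 for Psmg2 and -1.16 ± 0.26 for Psmg3. Psmg1 was at 6.00 to 16.4 CPM there and at 54.0 to 67.0 CPM in LN. In WT MC903 skin 12 of the 28 listed genes were higher and 8 lower than in LN, beside 26.5% and 24.5% of all genes. With MC903, 3 rose and 2 fell in WT skin, and 5 rose and 2 fell in cKO skin. Of all genes, 5.03% rose and 5.44% fell in WT skin, and 5.96% and 5.3% in cKO skin. Pomp, the core maturation factor, was at 133 to 181 CPM in untreated WT skin and at 212 to 251 CPM in LN. With MC903 it rose in WT and cKO skin, by 0.59 ± 0.14 (adjusted p = 0.0177, edgeR) and 0.93 ± 0.15 (adjusted p = 0.00123, edgeR).

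Of 12 genes of MHC class I antigen processing, 5 were higher and 3 lower in untreated WT skin than in LN, beside 28.8% of all genes each way. Tapbpl, a peptide editor, rose by 1.28 ± 0.16, the class I heavy chain gene H2-K1 by 0.65 ± 0.13 and the chaperone gene Calr by 0.56 ± 0.11, whereas the trimming peptidase gene Erap1 changed by -1.11 ± 0.22 (log2; adjusted p from 5.52e-06 to 0.000516, edgeR). Tap1, which shares a promoter region with Psmb9, was at 177 to 342 CPM in untreated WT skin and at 358 to 393 CPM in LN, and was not called (-0.46 ± 0.24, adjusted p = 0.117, edgeR). In WT MC903 skin 1 was higher and 5 lower, beside 26.5% and 24.5% of all genes. With MC903, 4 of the 12 fell in WT and 2 in cKO skin, and 0 rose. Of all genes, 5.03% rose and 5.44% fell in WT skin, and 5.96% and 5.3% in cKO skin.

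Of 27 genes of interferon signalling and response, 7 were higher and 12 lower in untreated WT skin, beside 28.8% of all genes each way. The kinase gene Jak2 rose by 3.73 ± 0.24 and the receptor gene Ifngr1 by 2.44 ± 0.22, while the interferon-stimulated genes Usp18 and Ifit2 changed by -5.24 ± 0.42 and -4.19 ± 0.29 (log2; adjusted p from 3.96e-09 to 1.59e-07, edgeR). Usp18 was at 1.75 to 5.75 CPM in untreated WT skin and at 86.0 to 193 CPM in LN. In WT MC903 skin 4 were higher and 14 lower than in LN, beside 26.5% and 24.5% of all genes. With MC903, 1 rose and 4 fell in WT and 0 rose and 4 fell in cKO skin. The shares of all genes were 5.03% and 5.44% in WT skin, and 5.96% and 5.3% in cKO skin. Irf1, whose product is known to act on Psmb9, fell with MC903 in WT and cKO skin, by 1.16 and 1.14 on the log2 scale.

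The authors' deposited table, which compares LN with skin, listed 14 members higher in LN and 9 higher in skin, among 3880 and 4049 genes of all. It shared 20 calls with the present fit, in the same direction, and 0 were opposite. In the authors' deposited table Psmb9 was higher in LN by 2.17 ± 0.21 on the log2 scale.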

How the data were processed

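Sorted Tregs gave RNA for SMART-Seq v4 libraries, sequenced as single-end reads of 75 bases, per the labels' protocols. The submitters' processing notes name TopHat2 2.0.6, the mm9 build and DESeq2. The counting tool, the annotation and any use of strand are not given in the sources used here, so genes with shared or overlapping sequence are uncertain. The authors deposited raw counts per gene and library, and a table of their comparison of LN with skin, which per the file headers holds a mean normalised signal, log2 fold changes, a score, p-values and adjusted p-values.

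From the deposited counts, genes were kept by edgeR's filterByExpr (13578 of 24015) and libraries scaled by TMM (factors 0.903 to 1.26). A single model of the 5 groups was fitted to all 15 libraries with edgeR 4.0.16 (R 4.3.3), contrasts were tested with robust quasi-likelihood, and p-values were adjusted by Benjamini-Hochberg over all genes tested. CPM divide by each library's total (19.8 to 27.7 M) times its TMM factor. Reads carry no molecular identifiers, so PCR copies count as reads. DESeq2 1.42.0 and limma 3.58.1 served as alternatives, and the edgeR fit was tested on simulated data. Promoters came from RefSeq and transcripts from GENCODE. The members and lists were chosen with earlier results of these data known. Named were the 5 inducible members, Psmb5, Psmb6 and Psmb7, up to 8 called members in each direction per comparison by adjusted p (with 0 called, the 2 with the smallest p), and up to 4 called genes of each other list, with any exception stated beside it. A gene that this rule names is not reported here. Over 30 pairs of libraries with the same replicate number, deviations correlated from -0.277 to 0.223, and 3 exceeded 0.1. These 3 were pairs of replicate 3, as was the lowest. Pairs with different numbers were not set against them, so whether libraries share animals or a batch was not tested.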

Additional observations from a re-analysis of the deposited data

How the results depend on the processing

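All 5 inducible genes kept their lower call in both comparisons with LN under each of the 14 alternatives run for it: DESeq2, other scaling, 2 other filters, only the compared groups, the replicate block, limma-voom with sample weights, leaving out each replicate, and leaving out 4 libraries rich in other cells (chosen after seeing the data). Psmb9 ranged from -2.50 to -2.14 and Psme2, the smallest, from -0.76 to -0.43 in untreated skin. No called value of a named member changed direction. Among values that were not called, those with MC903 changed sign in WT skin for Psmb8 (-0.14 to 0.01), Psmb10 (-0.11 to 0.18), Psme2 (-0.23 to 0.04) and Psmb5 (-0.12 to 0.12) and in cKO skin for Psmb6 (-0.08 to 0.27), as did genotype values near 0 for Psmb5, Psmb7, Psmb9, Psmb10, Psme1 and Psme2. Counts of members called were less steady. For MC903 in WT skin the count higher was 5 with DESeq2, 0 with only the compared groups, 1 without the 4 libraries and 0 to 3 on leaving out a replicate. Over all genes these settings gave 936, 218, 352 and 378 to 711 higher, and edgeR on all libraries 683. In cKO skin the member count was 10 with DESeq2, 19 with limma-voom, 3 without the 4 libraries and 0 to 15 on leaving out a replicate. Over all genes these settings gave 1097, 1364, 502 and 343 to 1054 higher, and edgeR on all libraries 809. For WT MC903 skin against LN the member count higher was 12 with DESeq2, 11 with only the compared groups and 13 with limma-voom. It was 3 without the 4 libraries and 4 to 7 on leaving out a replicate. Over all genes these 5 settings gave 3876, 3493, 4137, 2991 and 2862 to 3339 higher, and edgeR on all libraries 3602. For untreated skin against LN, leaving out a replicate gave 4 to 9 members higher and 13 to 14 lower. Over all genes it gave 3257 to 3686 higher and 3376 to 3590 lower, and edgeR on all libraries 3911 and 3913. The cause was not tested. With the replicate block these comparisons gave 2, 5, 6 and 6 members higher, and 0 between genotypes. Over all genes the block gave 613, 720, 3428 and 3737 higher in the same 4 comparisons. Over all genes, DESeq2 called 177 higher and 144 lower (edgeR 54 and 55) for genotype in untreated skin, 62 and 74 (11 and 24) in MC903 skin, 263 and 192 (120 and 117) averaged, and 11 and 6 (0 and 0) for the interaction. With only the compared groups MC903 in WT skin gave 218 and 323 (all groups 683 and 738), and limma-voom gave 1364 and 1278 (809 and 720) in cKO skin. Psma8 and Psmb11 were too shallow for any statement.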
